A study of Danio rerio with 9 samples.

Results

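Morphogens are secreted signals that tell cells where they lie and what to become, and the genes described here encode such signals, the receptors that read them and the proteins that restrain them. Members were chosen by symbol alone: a probe set was taken when the platform annotation gives it a single gene symbol that begins with the name of a Wnt, Frizzled, Sfrp, Dkk, Lrp5, Lrp6, Bmp, Bmp receptor, Gdf, Tgfb, Noggin, Chordin, Follistatin, Fgf, Fgf receptor, Sprouty, Hedgehog (shh or ihh), Patched, Smoothened, Gli, Hhip, Aldh1a, Cyp26, Rar or Rxr gene. The rule found 111 of the 15617 probe sets on the array, for 91 of the 8793 genes that have a probe set with a single symbol. By pathway these were 28 probe sets for Wnt signalling, 32 for BMP and TGF-beta, 20 for FGF, 10 for Hedgehog and 15 for retinoic acid, and 6 more (bmp2k, fgfr1op2, spryd4, spryd7a and spryd7b) that share only a name prefix with these families. No probe set with a single symbol matched Lrp5, Lrp6 or Patched. The rule was set with earlier results of these data known. The symbols of 15 genes stand on more than 1 probe set.

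The arrays measured total RNA of whole eyes dissected from wild-type zebrafish at 3, 4 and 5 days post fertilisation (dpf), with 3 Affymetrix Zebrafish Genome Arrays at each age. No treatment, mutation or transgene was involved, and the labels of the groups differ by age: the eye of an early larva as it begins to see, and the same organ 1 and 2 days later. The arrays at 3 and 5 dpf are biological replicates by the methods of the study, while the labels at 4 dpf carry a replicate number alone. How many eyes were pooled for an array was not given in the sources used here. All signals below are log2 values made with GCRMA, a background correction and summary of the probes of each probe set, and signals of different probe sets are not comparable as amounts of RNA.

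Arrays of a given age correlated at 0.983 to 0.995 over all probe sets, and arrays of different ages at 0.964 to 0.991. The lowest signals on the arrays at 4 dpf were 0.95 to 1.00, against 1.09 to 1.16 on the arrays at 3 and 5 dpf, and in the comparisons with 4 dpf any difference in how those arrays were processed cannot be told apart from age. The eye label held: the 13 photoreceptor and retina markers measured averaged 11.57 to 11.86 on the arrays at 3 dpf, 12.03 to 12.17 at 4 dpf and 11.72 to 11.87 at 5 dpf. Markers of cartilage, skeletal muscle, liver and pancreas differed between ages, on lists chosen with earlier results of these data known. Of 13 cartilage markers, 8 were lower at 5 dpf than at 3 dpf and 0 were higher, and the list averaged 8.31 to 8.62 at 3 dpf, 6.32 to 6.68 at 4 dpf and 5.70 to 6.06 at 5 dpf. Of 15 skeletal muscle markers, 10 were lower at 5 dpf and 0 were higher, and that list averaged 8.46 to 8.85, 5.75 to 6.06 and 5.41 to 6.77 at the same ages. Of 24 liver and pancreas markers, 6 were higher at 5 dpf and 0 lower. Of all probe sets, 2.97% were higher and 2.39% lower at 5 dpf by the limits given below.

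Wnt proteins bind Frizzled receptors on the cell surface and, through beta-catenin or through cell polarity pathways, keep precursor cells dividing and shape tissue. In the vertebrate eye Wnt signalling is known for its place in the ciliary margin, the rim where new retinal cells are made. BMP and TGF-beta ligands act through serine/threonine kinase receptors and pattern the dorsal eye, FGFs act through tyrosine kinase receptors and drive lens and retinal differentiation, Hedgehog acts by releasing Smoothened from Patched and spreads across the differentiating retina, and retinoic acid is a small molecule made from vitamin A that switches on nuclear receptors.

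Many of these probe sets gave low signals at these ages. Probe sets of a gene could differ widely, as for bmpr1aa with means of 8.48 and 2.46, so a low signal does not show that a gene's RNA was scarce. A mean signal of at least 5 over the 9 arrays was reached by 41 member probe sets of 37 genes, 22 lay between 3 and 5, and 48 lay under 3. Their log2 fold changes between 5 and 3 dpf ran from -0.43 to 0.23 in the lowest class, from -2.12 to 0.30 in the middle class and from -1.76 to 0.99 in the highest class. Ligands were mostly in the low classes: 0 of 9 FGF ligands, 1 of 10 Wnt ligands and 3 of 17 BMP and TGF-beta ligand probe sets had a mean of at least 5.

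A probe set was called differentially expressed when limma gave it a change of at least 2-fold and an adjusted p (Benjamini-Hochberg) below 0.05. Between 5 and 3 dpf, 10 of the 111 member probe sets were lower at 5 dpf, for 9 genes, beside 2.39% of all 15502 probe sets tested. The number higher was 0, beside 2.97% of all probe sets. Without the fold limit 13 were lower and 3 higher, beside 5.63% and 5.7% of all probe sets, and 29 had an unadjusted p under 0.05, beside 35.2%. The median log2 fold change of all members was 0.05, beside 0.10 for all probe sets. Among the 41 members with a mean of at least 5 the median was -0.35. The median of all probe sets with such a mean was not computed, so this value has no like background. The falls lay in Frizzled receptors (6 probe sets), retinoic acid genes (3) and fgf10a, and 0 of the BMP, TGF-beta and Hedgehog members were called. With single arrays left out the 10 calls became 3 to 11, with 3 without replicate 3 at 3 dpf and 6 without replicate 2 at 3 dpf. In each of the 10 called probe sets the 3 arrays at 5 dpf lay below the 3 arrays at 3 dpf. The calls were made on these same arrays, so this is nearly given by the choice and adds no support. The same holds below wherever the arrays of a called probe set are said not to overlap between 5 and 3 dpf. In bulk RNA of whole eyes a lower signal can come from fewer cells of a type or from less RNA per cell, and these cannot be told apart.

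**Figure D1:**
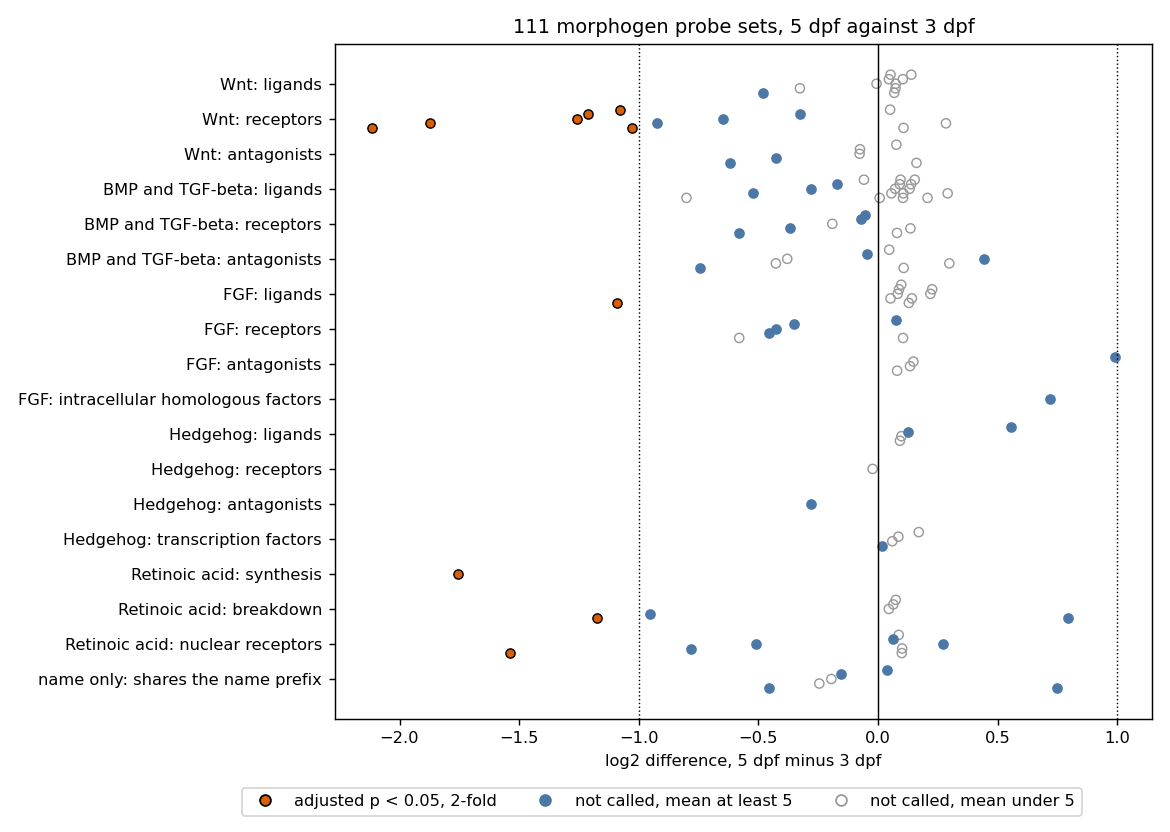
Log2 fold change of each of the 111 member probe sets, 5 dpf minus 3 dpf (x axis), by pathway and role (y axis). Orange points were called, blue points were not called and have a mean signal of at least 5, open points were not called and have a mean under 5, dotted lines mark 2-fold, and vertical offsets within a row carry no meaning. All 10 called points lie left of the line at -1, 6 of them in the row of Wnt receptors.

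Wnt ligand probe sets gave mostly low signals. Only wnt11, a ligand of the cell polarity branch, had a mean signal of at least 5, and its signals were 6.93, 6.91 and 6.86 at 3 dpf, 6.44, 6.32 and 5.96 at 4 dpf and 6.49, 6.51 and 6.25 at 5 dpf. All 3 dpf arrays lay above the others, and those at 4 and 5 dpf overlapped. The log2 fold change of 5 over 3 dpf was -0.48 (adjusted p = 0.030), which did not reach 2-fold, with a standard error (SE) of 0.09. The other 9 ligand probe sets (wnt1, wnt10a, wnt10b, wnt2, wnt2ba, wnt4, wnt4b, wnt5b and wnt8b) had means under 5 and were not called.

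The largest number of called members lay in the Frizzled receptors. Of 12 probe sets for 8 genes, 6 were lower at 5 dpf than at 3 dpf (50% of the probe sets, 5 of the genes), 0 were higher, and 9 had a negative log2 fold change. Of all probe sets, 2.39% were lower and 2.97% higher. The median of the 12 was -0.98, with a range from -2.12 to 0.28. With single arrays left out the count of 6 became 2 to 7: 2 without replicate 3 at 3 dpf (fzd2 and Dr.5454.1.S1_at of fzd7b) and 3 without replicate 2 at 3 dpf. Of the 6, Dr.5454.1.S1_at of fzd7b alone was called in all of these fits. The genes that fell were fzd2, fzd7a, fzd7b, fzd9b and fzd10, and those not called were fzd5, fzd8a and fzd8b.

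fzd7b was measured by a pair of probe sets, and both fell. Dr.5454.1.S1_at had signals of 6.001, 5.52 and 5.30 at 3 dpf, 3.76, 3.63 and 3.53 at 4 dpf and 3.55, 3.39 and 3.53 at 5 dpf. Dr.5454.1.S2_at had 8.24, 8.12 and 8.27 at 3 dpf, 7.23, 7.07 and 7.37 at 4 dpf and 6.59, 7.13 and 7.13 at 5 dpf. On both, the arrays at 3 dpf were high and stood clear of the other 6, while 4 and 5 dpf overlapped. The log2 fold changes of 5 over 3 dpf were -2.12 (SE 0.19, adjusted p = 0.0066) and -1.26 (0.17, adjusted p = 0.015). The first stayed called with any single array left out, and the second had an adjusted p of 0.052 without replicate 2 at 3 dpf and of 0.068 without replicate 3.

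Its close relative fzd7a, like fzd7b a receptor that reads Wnt ligands in early embryos, had signals of 9.15, 9.12 and 9.21 at 3 dpf, 8.35, 8.56 and 8.43 at 4 dpf and 7.79, 8.06 and 8.40 at 5 dpf. The arrays at 3 dpf agreed closely and were the highest, and those at 5 dpf were the most spread. The change of 5 over 3 dpf, on the log2 scale, was -1.08 (SE 0.16, adjusted p = 0.018). This call needed nearly all the arrays: the adjusted p was 0.056, 0.065 and 0.078 without replicates 1, 2 and 3 at 3 dpf and 0.059 without replicate 2 at 5 dpf, and without replicate 1 at 5 dpf the change was -0.93 and short of 2-fold.

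fzd2, a receptor of the same subfamily, had 7.74, 7.74 and 7.76 at 3 dpf, 6.71, 7.02 and 6.82 at 4 dpf and 6.60, 6.68 and 6.86 at 5 dpf. The 3 arrays at 3 dpf were almost equal and lay above the rest, which overlapped. Set against 3 dpf, 5 dpf gave a log2 fold change of -1.03 (SE 0.08, adjusted p = 0.0056), just past the 2-fold line, and was -0.97 without replicate 1 at 5 dpf. At the same place just short of the line stood the second probe set of fzd8a, Dr.23451.1.S1_s_at, with -0.92 (adjusted p = 0.084) and 5.80, 5.67 and 5.26 at 3 dpf, 4.95, 4.67 and 4.93 at 4 dpf and 4.35, 4.45 and 5.16 at 5 dpf. Its arrays at 3 dpf were above all others. It was called only in the fit without replicate 3 at 5 dpf, the highest array of that age, at -1.18 (adjusted p = 0.037).

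fzd10, a receptor of the canonical branch, fell on Dr.8067.1.S1_at, with 6.16, 5.11 and 5.82 at 3 dpf, 4.06, 3.96 and 3.63 at 4 dpf and 3.87, 3.89 and 3.70 at 5 dpf. The arrays at 3 dpf were high and the most spread, and the other 6 lay together more than 1 unit below. For 5 over 3 dpf the log2 fold change was -1.87 (SE 0.28, adjusted p = 0.018), with an adjusted p of 0.076 without replicate 3 at 3 dpf, 0.056 without replicate 2 at 5 dpf and 0.059 with a floor of 4 on the signals. The other fzd10 probe set, Dr.23450.1.S1_s_at, lay near 1.9 on every array.

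fzd9b, another Frizzled receptor, was lowest at 4 dpf. Dr.10341.1.S1_at had 5.61, 5.53 and 5.25 at 3 dpf, 3.68, 3.94 and 3.68 at 4 dpf and 3.99, 4.55 and 4.21 at 5 dpf. Dr.10623.1.A1_at had 6.87, 6.78 and 6.88 at 3 dpf, 5.78, 5.99 and 5.92 at 4 dpf and 6.06, 6.29 and 6.25 at 5 dpf. On both probe sets the 3 ages did not overlap, with 3 dpf highest, 5 dpf between and 4 dpf lowest. Between 5 and 3 dpf the log2 fold change was -1.21 (SE 0.18, adjusted p = 0.017) on the first, and -0.65 (0.08, adjusted p = 0.013) on the second, which did not reach 2-fold. Without replicates 1, 2 and 3 at 3 dpf the adjusted p of the first was 0.053, 0.066 and 0.054.

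The remaining genes of the family, fzd5, fzd8a and fzd8b, were not called and were named after their values were seen. fzd5, a retinal progenitor receptor, had 3.84, 4.09 and 3.87 at 3 dpf, 3.94, 4.42 and 3.89 at 4 dpf and 3.73, 3.90 and 4.47 at 5 dpf, all ages overlapping. At 5 dpf it differed from 3 dpf by a log2 fold change of 0.11, with a 95% confidence interval from -0.42 to 0.64 and an adjusted p of 0.72. fzd8b gave 0.28 (-0.02 to 0.59, adjusted p = 0.16), and Dr.8830.1.S1_at, the fzd8a probe set with the higher signal, gave -0.33 (-0.80 to 0.15, adjusted p = 0.25). The intervals of these 3 probe sets include 0 and exclude a 2-fold change. That of Dr.23451.1.S1_s_at, the fzd8a probe set given above with -0.92, ran from -1.59 to -0.26 and holds a 2-fold fall.

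**Figure D2:**
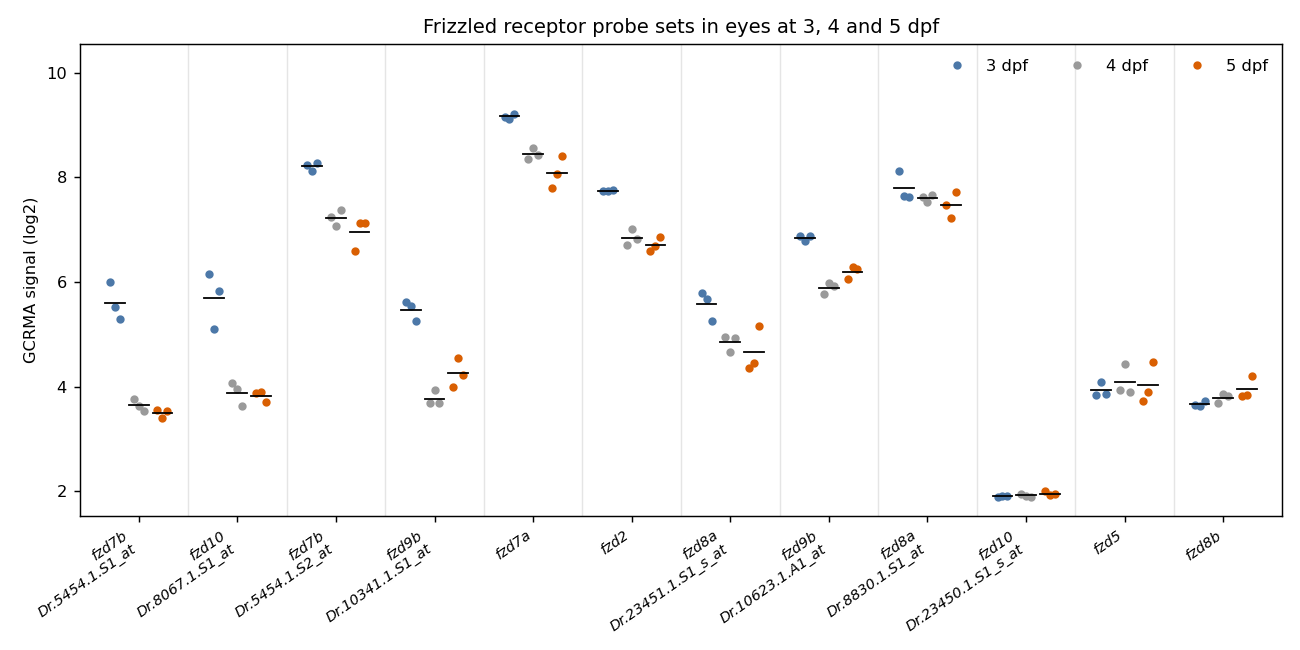
GCRMA signal (y axis, log2) of the 12 Frizzled probe sets (x axis, with the probe set identifier where a gene has more than 1) on the 3 arrays each at 3, 4 and 5 dpf. Points are arrays, black lines are means, and probe sets run from the largest fall to the largest gain at 5 dpf. The 6 called probe sets are the first 6 from the left, and in each of them the 3 dpf arrays stand above all others. Against 5 dpf this is nearly given by the call.

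Among the members, no probe set of the Dickkopf and Sfrp families, counted by symbol as Wnt antagonists, was called. Of these 6 probe sets, 2 had an unadjusted p under 0.05, beside 35.2% of all probe sets. dkk3b, a member of the Dickkopf family of secreted proteins, had the largest difference among the antagonists with a mean of at least 5, with 6.20, 6.88 and 6.77 at 3 dpf, 5.56, 6.39 and 6.24 at 4 dpf and 5.94, 6.14 and 5.91 at 5 dpf. Its arrays at 5 dpf lay just below those at 3 dpf, and those at 4 dpf overlapped both. The log2 fold change of 5 over 3 dpf was -0.62 (SE 0.20, adjusted p = 0.099). The remaining 5 antagonist probe sets (dkk1b, dkk2, sfrp1a and sfrp5) were not called either, and over all 6 the median was -0.08.

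Among 32 measured transducers and targets of Wnt signalling, 2 were lower at 5 dpf and 0 higher, with a median of -0.26. Of all probe sets, 2.39% were lower and 2.97% higher. lef1, the transcription factor that partners beta-catenin, had 3.84, 3.80 and 4.14 at 3 dpf, 2.35, 2.51 and 2.27 at 4 dpf and 2.76, 2.68 and 2.69 at 5 dpf, and its log2 fold change of 5 over 3 dpf was -1.22 (adjusted p = 0.0065). ctnnbip1, which encodes a small inhibitor of beta-catenin binding, had 10.86, 10.39 and 10.63 at 3 dpf, 10.05, 9.86 and 9.78 at 4 dpf and 9.53, 9.61 and 8.99 at 5 dpf, with a log2 fold change of -1.25 (adjusted p = 0.024). For both genes all arrays at 3 dpf lay above those at 4 and 5 dpf. Against 5 dpf this is nearly given by the call. The signals of lef1 are low, and its change was -0.05 (adjusted p = 0.75) with a floor of 4. ctnnbip1 lost its call on leaving out any single array at 3 dpf, with an adjusted p of at most 0.092. A floor of 4 left its own change at -1.25, with an adjusted p of 0.062.

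In the retinoic acid pathway an enzyme that makes the ligand and an enzyme that removes it fell together. aldh1a2, a retinaldehyde dehydrogenase that makes retinoic acid, had 7.38, 7.42 and 7.24 at 3 dpf, 5.83, 6.37 and 6.08 at 4 dpf and 5.30, 5.99 and 5.47 at 5 dpf. All 3 dpf arrays were far above the rest, and 4 and 5 dpf overlapped. For 5 over 3 dpf the log2 fold change was -1.76 (SE 0.19, adjusted p = 0.0094), and it stayed called with any single array left out, at an adjusted p of at most 0.045. It was the only probe set for synthesis among the members, since the rule found no other Aldh1a gene with a single symbol.

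cyp26b1 encodes a cytochrome P450 that breaks retinoic acid down. Dr.180.1.A1_at had 8.10, 7.80 and 7.75 at 3 dpf, 6.94, 7.03 and 7.16 at 4 dpf and 6.94, 6.61 and 6.57 at 5 dpf. The arrays at 3 dpf did not overlap the later ages, and the log2 fold change of 5 over 3 dpf was -1.17 (SE 0.15, adjusted p = 0.012), or 0.0502 without replicate 3 at 3 dpf. Dr.26342.1.A1_at had 9.28, 8.35 and 8.90 at 3 dpf, 8.22, 7.93 and 7.94 at 4 dpf and 8.33, 7.58 and 7.75 at 5 dpf, again with 3 dpf highest, with a log2 fold change of -0.95 (SE 0.31, adjusted p = 0.10). The other cyp26b1 probe sets lay near 2.4 and 1.9 on every array.

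cyp26a1, the other main enzyme of retinoic acid breakdown, had values in the opposite direction and was named after they were seen. Its signals were 8.81, 8.90 and 8.71 at 3 dpf, 9.05, 9.32 and 8.84 at 4 dpf and 9.31, 9.56 and 9.94 at 5 dpf. The 3 arrays at 5 dpf lay above the 3 at 3 dpf, with 4 dpf overlapping both. Between 5 and 3 dpf the log2 fold change was 0.80 (SE 0.17, adjusted p = 0.045), which did not reach 2-fold.

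rarga, a retinoic acid receptor of the gamma class, fell on Dr.23544.1.S1_s_at, with 5.42, 5.68 and 5.34 at 3 dpf, 3.63, 3.90 and 3.85 at 4 dpf and 3.98, 3.46 and 4.39 at 5 dpf. All later arrays lay below those at 3 dpf, and those at 5 dpf were the most spread. The change of 5 over 3 dpf, on the log2 scale, was -1.54 (SE 0.25, adjusted p = 0.022), with an adjusted p of 0.065, 0.079 and 0.078 without replicates 1, 2 and 3 at 3 dpf. The suffix of this probe set marks probes that can match more than 1 transcript. The second probe set, Dr.194.1.S1_at, had 8.07, 8.69 and 8.51 at 3 dpf, 7.63, 7.76 and 7.70 at 4 dpf and 7.22, 7.64 and 8.06 at 5 dpf. There too the arrays at 3 dpf were the highest, though by little over the last array at 5 dpf, with a log2 fold change of -0.78 (SE 0.27, adjusted p = 0.11). The other nuclear receptors (raraa, rarab, rxrab, rxrba, rxrbb and rxrga) were not called.

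Of 25 measured transducers and targets of retinoic acid 4 were higher at 5 dpf and 0 lower, with a median of 0.08. Of all probe sets, 2.97% were higher and 2.39% lower. dhrs9, a dehydrogenase that oxidises retinol, had 6.56, 6.30 and 5.81 at 3 dpf, 7.36, 6.69 and 6.67 at 4 dpf and 7.97, 7.60 and 7.70 at 5 dpf, with a log2 fold change of 1.53 (adjusted p = 0.016, or 0.057 without replicate 2 at 3 dpf). stra6, the receptor that takes up vitamin A and a marker of pigment epithelium, had 10.76, 10.77 and 10.91 at 3 dpf, 12.17, 12.004 and 12.17 at 4 dpf and 12.15, 12.37 and 12.16 at 5 dpf, with a log2 fold change of 1.41 (adjusted p = 0.0035). nrip1b, which encodes a corepressor of nuclear receptors, gave 1.18 (adjusted p = 0.0069). In all of these genes every array at 5 dpf was above every array at 3 dpf. They were called on these same arrays, so this adds no support. stra6 stands on the pigment epithelium marker list, of whose 6 measured genes stra6 alone was higher at 5 dpf and 0 were lower. The list averaged 9.20 to 9.66 on the arrays at 5 dpf, against 8.98 to 9.26 at 3 dpf. These averages include stra6, so they are no separate sign of a rise in pigment epithelium.

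**Figure D3:**
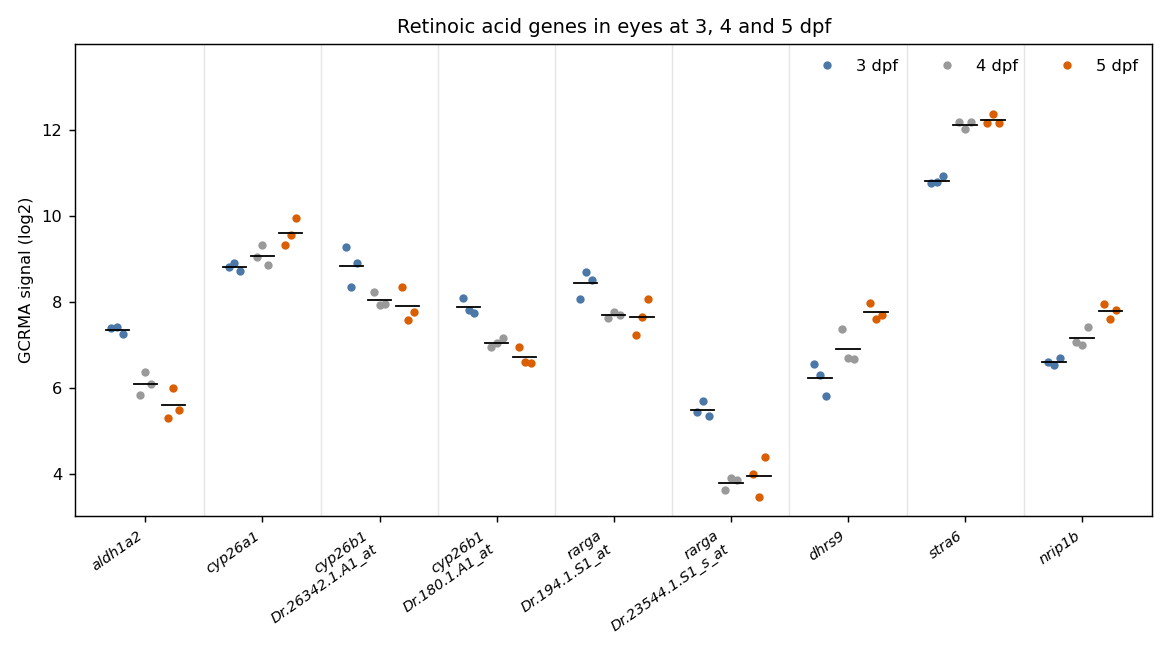
GCRMA signal (y axis, log2) of aldh1a2, cyp26a1, the probe sets of cyp26b1 and rarga with a mean of at least 3, and the 3 called pathway genes with the largest gains (x axis), on the 3 arrays each at 3, 4 and 5 dpf. Points are arrays and black lines are means. aldh1a2 and Dr.180.1.A1_at of cyp26b1 step down after 3 dpf. stra6 steps up by 1.30 at 4 dpf and lies 1.41 above 3 dpf at 5 dpf.

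In the FGF pathway the ligands gave low signals, and some of the genes that FGF signalling is known to induce rose. fgf10a, a ligand known from limb and gland buds, was the only ligand called. Its signals were 4.00, 3.88 and 4.44 at 3 dpf, 2.84, 2.86 and 2.87 at 4 dpf and 3.06, 2.93 and 3.05 at 5 dpf. All arrays at 3 dpf lay above the others, and the log2 fold change of 5 over 3 dpf was -1.09 (SE 0.16, adjusted p = 0.018). These are low signals, and the change was -0.15 (adjusted p = 0.75) with a floor of 4 on the signals. Without replicate 3 at 3 dpf it was -0.92 and short of 2-fold, and without replicate 2 at 5 dpf the adjusted p was 0.058. The other 8 ligand probe sets (fgf18a, fgf2, fgf24, fgf3, fgf4, fgf6a, fgf8a and fgf8b) had means under 3.

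FGF receptors (fgfr1a, fgfr2, fgfr3, fgfr4 and the decoy-like fgfrl1a) were not called on any of 6 probe sets, and the median was -0.39. An unadjusted p under 0.05 was found for 0 of the 6, beside 35.2% of all probe sets. The receptor probe set with the largest difference at a mean of at least 5 was Dr.19222.1.S2_at of fgfr2, with 8.73, 8.55 and 9.19 at 3 dpf, 8.48, 8.17 and 8.43 at 4 dpf and 8.35, 8.15 and 8.61 at 5 dpf. The ages 3 and 5 dpf overlapped, and the log2 fold change was -0.46 (95% confidence interval -0.97 to 0.06, adjusted p = 0.17). The other fgfr2 probe set gave -0.58 at low signals (adjusted p = 0.29).

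spry4, a Sprouty protein that FGF signalling induces and that in turn restrains it, had 7.69, 8.01 and 7.99 at 3 dpf, 8.09, 8.59 and 8.72 at 4 dpf and 8.33, 9.30 and 9.04 at 5 dpf. Both later ages lay above 3 dpf on every array and overlapped each other. The log2 fold change of 5 over 3 dpf was 0.99 (SE 0.27, adjusted p = 0.075) and was not called. Leaving out replicate 1 at 5 dpf, the lowest array of that age, gave 1.27 (adjusted p = 0.020). This single fit does not make spry4 a call. The probe sets of spry2, the other Sprouty gene among the members, gave 0.08, 0.15 and 0.13 and were not called. fgf13a, an intracellular FGF homologue that acts on sodium channels in neurons and not as a secreted ligand, had 7.86, 7.26 and 7.68 at 3 dpf, 7.91, 7.99 and 8.01 at 4 dpf and 8.13, 8.44 and 8.38 at 5 dpf. Its ages did not overlap, with a log2 fold change of 0.72 (SE 0.18, adjusted p = 0.064).

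Of 30 measured transducers and targets of FGF signalling, 5 were higher at 5 dpf and 4 lower, with a median of 0.10. Of all probe sets, 2.97% were higher and 2.39% lower. dusp5, a phosphatase that switches off ERK, had 6.66, 6.48 and 6.61 at 3 dpf, 8.03, 8.79 and 8.55 at 4 dpf and 8.96, 9.91 and 9.52 at 5 dpf, each age above the one before without overlap, with a log2 fold change of 2.88 between 5 and 3 dpf (SE 0.24, adjusted p = 0.0060). dusp2, another such phosphatase, gave 1.38 (adjusted p = 0.010), and etv5b, an ETS transcription factor induced by FGF, gave 1.33 (adjusted p = 0.0051). etv5b had 9.40, 9.18 and 9.17 at 3 dpf, 10.46, 10.73 and 10.54 at 4 dpf and 10.69, 10.43 and 10.62 at 5 dpf, so that its arrays at 4 and 5 dpf overlapped above those at 3 dpf. Not all such genes on the list rose: etv4, another ETS factor, gave -0.32 (adjusted p = 0.42) and il17rd gave -0.18 (adjusted p = 0.39). These phosphatases and ETS factors also answer to other signals that act through ERK.

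Of the FGF list's genes that fell, sulf1, a sulfatase that edits the heparan sulfate chains FGFs bind, had 5.88, 5.59 and 5.96 at 3 dpf, 5.46, 5.43 and 5.41 at 4 dpf and 4.35, 4.21 and 4.05 at 5 dpf. It stood apart in its timing, with the larger drop after 4 dpf. Set against 3 dpf, 5 dpf gave a log2 fold change of -1.60 (adjusted p = 0.0056). anos1b, an extracellular matrix protein that binds FGF receptors, also gave -1.60 (adjusted p = 0.0034), and cnpy1, a positive regulator of FGF signalling in zebrafish, gave -1.51 (adjusted p = 0.015, or 0.058 and 0.068 without replicates 2 and 3 at 3 dpf).

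**Figure D4:**
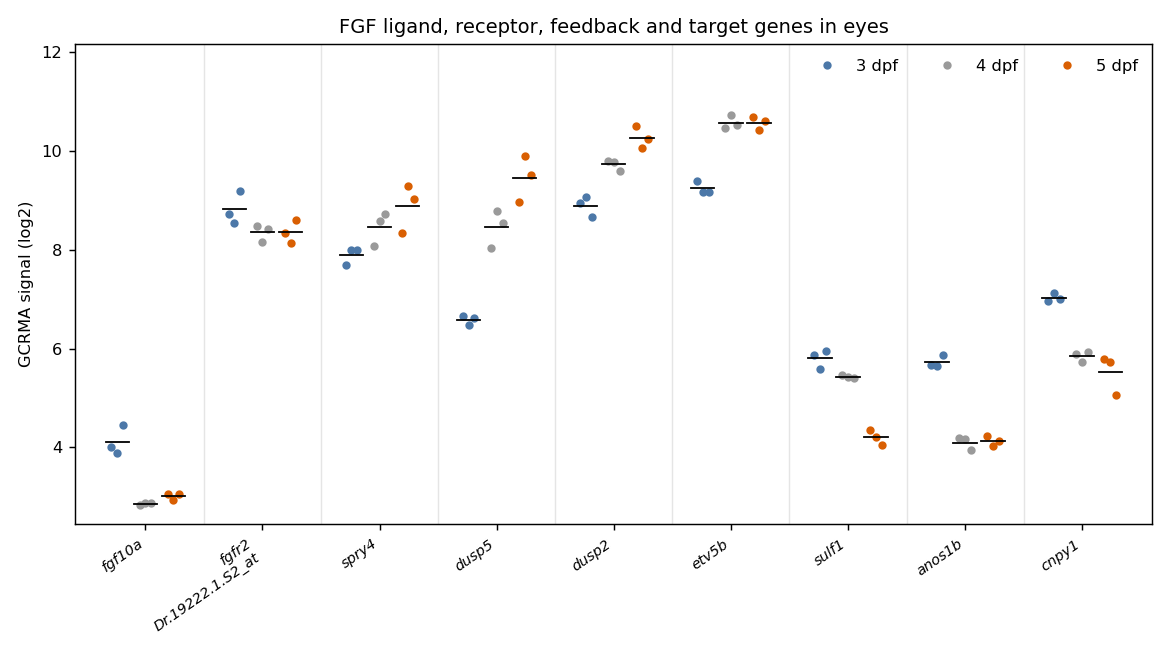
GCRMA signal (y axis, log2) of fgf10a, fgfr2, spry4 and the 3 called FGF pathway genes with the largest gains and the 3 with the largest falls (x axis), on the 3 arrays each at 3, 4 and 5 dpf. Points are arrays and black lines are means. dusp5 gains 2.88 between 3 and 5 dpf, while fgf10a lies near 3 at 4 and 5 dpf.

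None of the 32 BMP and TGF-beta member probe sets was called between 5 and 3 dpf, beside 2.97% of all probe sets higher and 2.39% lower. An unadjusted p under 0.05 was found for 6, beside 35.2% of all probe sets. bmp5, the ligand with the largest difference at a mean of at least 5, had 6.33, 6.46 and 6.67 at 3 dpf, 5.75, 5.70 and 6.13 at 4 dpf and 5.65, 6.30 and 5.94 at 5 dpf. Its arrays at 3 dpf were the highest by a small margin, and the log2 fold change of 5 over 3 dpf was -0.52 (SE 0.19, adjusted p = 0.12). gdf6a, a ligand of the dorsal retina that was named after its values were seen, gave -0.80 (adjusted p = 0.024) at signals with a mean of 3.25 at 5 dpf, against 4.05 at 3 dpf.

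No receptor of the family was called. tgfbr2b, a type II TGF-beta receptor, had on Dr.6407.1.A1_at 7.46, 7.47 and 7.36 at 3 dpf, 6.98, 7.05 and 6.96 at 4 dpf and 7.14, 6.73 and 6.68 at 5 dpf. The arrays at 3 dpf lay above the rest, but the difference was small, at -0.58 for 5 over 3 dpf (SE 0.14, adjusted p = 0.056). Its second probe set gave -0.19 (adjusted p = 0.41).

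The probes of bmpr1aa, a type I BMP receptor, are shown here because they are the only probe sequences of a member found in the tables read, and they show what a signal rests on: short stretches of the transcript, each paired on the array with a copy that carries a wrong base in the middle. Each line gives the first probe listed for a probe set, 5′ to 3′, 25 bases long, with base 13, the one changed in the mismatch copy, in capitals.
Dr.25506.2.A1_at: aatagtaacattTtctcaccccagc
Dr.8154.1.S1_at: ggcccaccgtatCcaacagatggaa
Dr.25506.2.A1_at, with 16 probes in that table, had signals of 8.39, 8.65 and 8.53 at 3 dpf, 8.31, 8.65 and 8.35 at 4 dpf and 8.38, 8.04 and 8.99 at 5 dpf, all ages overlapping. At 5 dpf it differed from 3 dpf by a log2 fold change of -0.05 (95% confidence interval -0.69 to 0.58, adjusted p = 0.89). Dr.8154.1.S1_at, with 11 probes listed, lay between 2.41 and 2.54 on every array, and Dr.25506.3.S1_at gave -0.37 (adjusted p = 0.28). bmpr1aa was named after its values were seen.

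Among antagonists, fsta, a follistatin that binds and holds back activin and BMP ligands, had on Dr.198.1.S2_at 6.69, 6.64 and 6.26 at 3 dpf, 5.44, 5.51 and 5.40 at 4 dpf and 6.36, 5.20 and 5.79 at 5 dpf. The arrays at 4 dpf were tight and low, and those at 5 dpf ran from below them to within the range of 3 dpf. Between 5 and 3 dpf the log2 fold change was -0.74 (95% confidence interval -1.54 to 0.05, adjusted p = 0.16). The other probe set, Dr.198.1.S1_at, lay between 1.77 and 2.06. The remaining genes counted as antagonists (chrd, fstl1b, fstl5, nog1, nog2 and nog3) were not called. Roles were assigned by symbol, which does not show that each gene acts as an antagonist.

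Of 38 measured transducers and targets of BMP and TGF-beta signalling, 2 were higher at 5 dpf and 3 lower, with a median of 0.10. Of all probe sets, 2.97% were higher and 2.39% lower. The genes that rose were tob1b, with 2.05 (adjusted p = 0.0071), and tob1a, with 1.83 (adjusted p = 0.014, or 0.059 without replicate 3 at 3 dpf), which encode antiproliferative proteins known in mammals to restrain BMP signalling through Smads. Signals of tob1b were 8.81, 8.16 and 8.51 at 3 dpf, 9.78, 9.68 and 9.44 at 4 dpf and 10.74, 10.51 and 10.38 at 5 dpf, each age above the one before without overlap. The genes that fell were sost, bmper and tgfbi. sost, a secreted antagonist known from mammalian bone, gave -2.12 (adjusted p = 0.0043). Its place on this list and not on the Wnt list was a choice and does not show which pathway it acts on. bmper, a BMP-binding protein of vessels and cartilage, gave -1.53 (adjusted p = 0.026). tgfbi, a matrix protein induced by TGF-beta and abundant in cornea, gave -1.39 (adjusted p = 0.0063). bmper lost its call on leaving out any single array at 3 dpf or replicate 2 at 5 dpf, with an adjusted p of at most 0.10. A floor of 4 left its own change at -1.53, with an adjusted p of 0.068.

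In the Hedgehog pathway no member probe set was called in any comparison, and 1 of 10 had an unadjusted p under 0.05 between 5 and 3 dpf. Of the pathway's 14 measured transducers and targets 0 were higher and 0 lower at 5 dpf, with 5 at an unadjusted p under 0.05. Of all probe sets, 2.97% were called higher and 2.39% lower between these ages, and 35.2% had such a p. shha, the Sonic hedgehog ligand that retinal ganglion cells and the pigment epithelium make in zebrafish, had 7.64, 7.39 and 7.63 at 3 dpf, 7.78, 7.83 and 7.77 at 4 dpf and 7.93, 8.25 and 8.15 at 5 dpf. The ages did not overlap, with 3 dpf lowest and 5 dpf highest. The change of 5 over 3 dpf, on the log2 scale, was 0.56 (SE 0.12, adjusted p = 0.043), without reaching 2-fold.

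The other Hedgehog members were not called either. hhip, a membrane protein that binds and sequesters Hedgehog ligands, had 7.11, 7.14 and 7.09 at 3 dpf, 7.33, 7.18 and 6.89 at 4 dpf and 7.30, 6.09 and 7.11 at 5 dpf, where replicate 2 at 5 dpf lay apart from the other 8 arrays. Set against 3 dpf, 5 dpf gave a log2 fold change of -0.28 (95% confidence interval -1.10 to 0.54, adjusted p = 0.53), or 0.09 without that array. The interval holds a 2-fold fall. gli2a, a transcription factor of the pathway, had 5.32, 5.55 and 5.80 at 3 dpf, 5.52, 5.49 and 5.47 at 4 dpf and 5.57, 5.57 and 5.58 at 5 dpf, with the later ages inside the range of 3 dpf. At 5 dpf it differed from 3 dpf by a log2 fold change of 0.02, with a 95% confidence interval from -0.31 to 0.34. smo, the Smoothened transducer, gave -0.02 at a mean signal under 5.

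Among the 6 probe sets that share only a name prefix, spryd7b, a SPRY domain gene that is not a Sprouty, had 6.84, 6.59 and 6.39 at 3 dpf, 7.24, 7.25 and 7.17 at 4 dpf and 7.39, 7.23 and 7.45 at 5 dpf. Arrays of both later ages lay above those at 3 dpf and overlapped each other. For 5 over 3 dpf the log2 fold change was 0.75 (SE 0.13, adjusted p = 0.028), again under 2-fold.

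Of the 10 falls called between 5 and 3 dpf, 6 were also called between 4 and 3 dpf, and all 10 had an adjusted p under 0.05 there. Those not called were fzd2, fzd7a, cyp26b1 (Dr.180.1.A1_at) and Dr.5454.1.S2_at of fzd7b, all with a mean signal of at least 5. Of the falls with such a mean, that of aldh1a2 alone was called in both comparisons. Between 4 and 3 dpf, 7 member probe sets of 7 genes were lower, beside 1.66% of all probe sets, and 0 were higher, beside 1.62%. They were fzd7b (Dr.5454.1.S1_at, log2 fold change -1.96, adjusted p = 0.0011), fzd10 (-1.81, adjusted p = 0.0062), fzd9b (-1.70, adjusted p = 0.0016), rarga (Dr.23544.1.S1_s_at, -1.69, adjusted p = 0.0050), fgf10a and aldh1a2 (both -1.25, adjusted p = 0.0025 and 0.0091) and fsta (Dr.198.1.S2_at, -1.08, adjusted p = 0.041). Without the fold limit 5 members were higher and 19 lower at 4 dpf, beside 7.21% and 6.19% of all probe sets. The median of all members was -0.03, beside 0.04 for all probe sets. Of these calls, 6 held with each array left out in turn, and fgf10a changed to -0.15 with a floor of 4. That of fsta was lost on leaving out any single array at 3 or 4 dpf, or replicate 3 at 5 dpf, with an adjusted p of at most 0.12. It was also lost with a floor of 4 (0.10), which left its own change at -1.08.

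Between 5 and 4 dpf, 0 of 111 were called, beside 0.264% of all probe sets higher and 0.174% lower, while 29 members had an unadjusted p under 0.05, beside 23.3%. The comparisons with 4 dpf share the arrays at 4 dpf, so a day's fall and the next day's gain are not separate pieces of evidence. The difference between the steps, (4 minus 3) minus (5 minus 4), was fitted on all 9 arrays, a contrast added after the data were seen. It weighs the mean at 4 dpf more than those at 3 and 5 dpf. Any difference in how the 4 dpf arrays were processed therefore enters it in full and cannot be told apart from age. All 10 probe sets called between 5 and 3 dpf had a negative value, that is, a more negative first step, beside a median of 0.01 over all probe sets. For 5 of them the adjusted p was under 0.05, beside 4.19% of all probe sets with a negative value at that limit: fzd9b (Dr.10341.1.S1_at, -2.19, adjusted p = 0.0062), rarga (Dr.23544.1.S1_s_at, -1.84, adjusted p = 0.036), fzd7b (Dr.5454.1.S1_at, -1.81, adjusted p = 0.014), fgf10a (-1.41, adjusted p = 0.015) and fzd2 (-0.76, adjusted p = 0.043). It was not for fzd10 (-1.74, adjusted p = 0.069), aldh1a2 (-0.74, adjusted p = 0.32), cyp26b1 (Dr.180.1.A1_at, -0.49, adjusted p = 0.32), fzd7a (-0.35, adjusted p = 0.59) and the second probe set of fzd7b (-0.71, adjusted p = 0.22). These 10 were picked for a fall between 5 and 3 dpf, so all probe sets are not a like background for them. The step difference of all probe sets called lower was not computed, so the early step is not shown to be particular to the members.

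bmp4, a ligand of the dorsal retina that was named after its values were seen, stood lower at 4 dpf than at the ages on either side. Its signals were 3.81, 3.90 and 3.92 at 3 dpf, 2.72, 2.97 and 2.95 at 4 dpf and 3.83, 3.77 and 3.85 at 5 dpf, with 4 dpf far below the other ages, which overlapped. The log2 fold change was -0.998 for 4 over 3 dpf (adjusted p = 7.0e-04), 0.94 for 5 over 4 dpf (adjusted p = 0.0020) and -0.06 for 5 over 3 dpf (adjusted p = 0.48), the first of these a hair under 2-fold. All its signals lie under 4, so a floor of 4 leaves no difference. Without the fold limit 10 members were higher at 5 than at 4 dpf, beside 5.59% of all probe sets, and 0 of these had a mean signal of at least 5. Here too a difference in processing cannot be told apart from age.

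**Figure D5:**
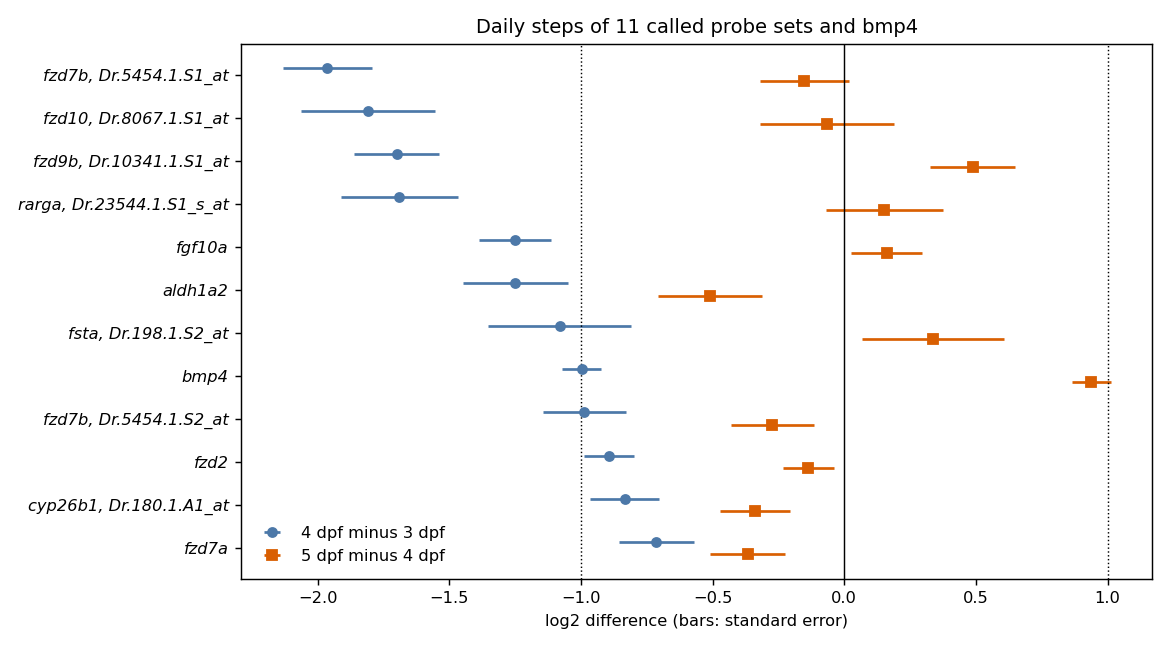
Log2 fold changes (x axis) of the 11 member probe sets called between 5 and 3 dpf or between 4 and 3 dpf, and of bmp4 (y axis), for 4 dpf minus 3 dpf (blue circles) and 5 dpf minus 4 dpf (orange squares). Bars are standard errors from the fit to 9 arrays, and dotted lines mark 2-fold. The first step of every probe set lies at or below -0.71, and the second step lies between -0.51 and 0.94.

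Cartilage and skeletal muscle markers also fell over these ages. The cartilage list fell by a median of 2.59 on the log2 scale between 5 and 3 dpf and had a median of -2.14 between 4 and 3 dpf. The skeletal muscle list fell by 2.43 and had -2.94. Between 5 and 4 dpf 0 markers of either list were called, beside 0.264% of all probe sets higher and 0.174% lower. The medians of that step were -0.40 for cartilage and 0.20 for muscle. An unadjusted p under 0.05 was found there for 8 of 13 cartilage and 2 of 15 muscle markers, beside 23.3% of all probe sets. At 3 dpf the defining cartilage markers matn1 and col2a1a were high, while acanb, col11a2, ucmaa and sox9a had means under 4 at 5 and 3 dpf alike. The retinal progenitor and dividing cell list had a median of -0.23, with 1 of 15 markers higher (rx1) and 0 lower at 5 dpf. All 8 dividing cell markers in it had negative values between 5 and 3 dpf, from -1.13 for ccna2 (adjusted p = 0.0503) to -0.14 for top2a, with a median of -0.69, while the 7 progenitor markers had a median of 0.03, a split made after the values were seen. The dividing cell markers had a median of -0.21 between 4 and 3 dpf and of -0.44 between 5 and 4 dpf. The part of cartilage, muscle or dividing cells in the falls of the called members was not tested.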

How the data were processed

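Total RNA of wild-type zebrafish eyes was hybridised to 9 arrays. The methods of the study give a 2-cycle amplification and labelling protocol for the arrays at 3 and 5 dpf. They do not describe the arrays at 4 dpf. The deposited values are log2 signals, 1 per original Affymetrix probe set, made by the authors with GCRMA (version not given in the sources used here). It is not stated if the 4 dpf arrays were normalized with the others, and nothing was normalized further. The 115 control probe sets were left out, and 15502 were tested with limma 3.58.1 in R 4.3.3 (lmFit, eBayes, Benjamini-Hochberg over all probe sets). The fit for 5 against 3 dpf used those 6 arrays, and the comparisons with 4 dpf used all 9. Calls needed an adjusted p under 0.05 and at least 2-fold. With 3 arrays per age the precision is limited by their number. The p-values of the comparisons with 4 dpf rest on a spread pooled over all 9 arrays. The part of that spread from the arrays at 4 dpf may be technical. If so, these p-values do not measure the spread between biological replicates at 4 dpf. The code was tested on simulated data.

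The members, pathway lists and marker lists were chosen with earlier results of these data known. Named genes were every called member, and for each role the gene with the largest difference between 5 and 3 dpf at a mean signal of at least 5, with its other probe sets. Of pathway genes up to 3 called per direction are named. Marker lists not described above are lens, Muller glia, epidermis and cornea, and blood vessels, with 0, 0, 0 and 0 markers higher and 0, 0, 1 and 0 lower at 5 dpf.

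With the mean of each age taken out, same-numbered arrays at 3 and 4 dpf correlated at 0.599, 0.497 and 0.439, so the numbers pair these ages in the data. The block changed no call. Alternatives were quantile normalization, median centring, a floor of 4, a mean of at least 5, the replicate block, other arrays for the spread, no fold limit, trend and robust eBayes, 1 probe set per gene, control probe sets kept and each array left out.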

Additional observations from a re-analysis of the deposited data

How the results depend on the processing

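Of the 10 members lower at 5 than at 3 dpf, 5 were called when testing was limited to means of at least 5 and 6 with 1 probe set per gene. Without the fold limit 16 were (3 higher, 13 lower). Leaving out each array gave 3 to 11 calls: 3 without replicate 3 and 6 without replicate 2 at 3 dpf. For 4 against 3 dpf the 7 calls became 2 with a mean of at least 5, 4 with 1 probe set per gene and 24 without the fold limit (5 higher, 19 lower), and 6 to 8 with each array left out. For 5 against 4 dpf the 0 calls became 10, all higher, without the fold limit and stayed 0 in every other fit. The other settings gave 8 to 10 calls for 5 against 3 dpf and 5 to 9 for 4 against 3 dpf.

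With the replicate block the counts were 10, 7 and 0, and 7 for 4 against 3 dpf in a fit to the 6 arrays at those ages, added after the data were seen. Between 3 and 5 dpf the same-number correlations were 0.541, 0.0082 and 0.041, and between 4 and 5 dpf 0.725, -0.072 and -0.031, so the numbers pair neither. At 5 dpf, replicates 2 and 3 correlated better with replicates 3 and 2 of the other ages (0.208 to 0.529), and no fit was crossed for this. Signs turned for uncalled probe sets alone. With quantile normalization the log2 fold change of 5 over 3 dpf was -0.0464 for fsta (Dr.198.1.S1_at), -0.0415 for bmpr1aa (Dr.8154.1.S1_at), -0.0456 and -0.0439 for cyp26b1 (Dr.180.2.A1_at and DrAffx.2.62.S1_at), -0.0376 for fzd10 (Dr.23450.1.S1_s_at) and -0.0046 for fzd5, where the median of all probe sets was 0.006 in place of 0.10. With each array left out it ran from -0.31 to 0.16 for bmpr1aa (Dr.25506.2.A1_at; above 0 without replicate 2 at 3 or at 5 dpf), -0.51 to 0.0896 for hhip (above 0 without replicate 2 at 5 dpf), -0.0997 to 0.14 for gli2a (below 0 without replicate 1 at 3 dpf) and -0.11 to 0.26 for fzd5 (below 0 without replicate 3 at 5 dpf). The cause of these changes was not tested, beyond the smaller set of probe sets or arrays that a setting leaves. Low signals limit the members with means under 3, whose log2 fold changes lay between -0.56 and 0.33 in the 3 comparisons.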
